A study of Mus musculus with 8 samples.

Results

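Splicing factor and heterogeneous nuclear ribonucleoprotein (hnRNP) transcripts were examined in cultured mouse hepatic stellate cells for N6-methyladenosine (m6A), the methylated form of adenosine found within many RNAs. Members were all entries of the deposited peak lists whose gene symbol begins with Srsf, Sf3, Hnrnp, U2af, Snrp, Prpf or Snrnp. This gave 53 of the 6487 genes with any peak, with 72 of 6709 peaks in the cKO list and 42 of 8397 peaks in the control list. The cKO group is labelled as carrying a knockout of Mettl3, which encodes the enzyme that writes most m6A in messenger RNA, restricted to stellate cells. The control group is labelled Control and WT. Both come from C57BL/6J mice, and both sets of primary cells were kept for 7 days in culture, where they activate spontaneously. The labels name 2 precipitated and 2 input libraries per genotype, and give neither the Cre driver nor the age, sex or pooling of the animals.

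The authors deposited 1 peak list per genotype. No value per replicate and no read depth is given, so replicate error could not be measured and no p-value for a difference between genotypes is given. Ranges beside shares are 95% intervals (exact Clopper-Pearson) and cover no more than counting error. The fold of a peak is the authors' fold enrichment, read here as precipitated over input RNA within a genotype. Positions are those of the mm10 build, and distances from a RefSeq gene end run along the genome, introns included. RNA abundance was not analysed here, so a transcript with fewer called sites and one that is less abundant cannot be told apart. No Mettl3 peak was called in either genotype, so its deletion could not be checked here. Of 7 stellate cell markers, 6 had a cKO peak and 5 a control peak, while none of 4 hepatocyte markers had one in either list. Of the other cells' markers, Cd68 and Krt19 had a peak in the cKO list, Kdr in the control list, and Pecam1 in both. The part of other cells in the results was not tested.

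The spliceosome removes introns in steps that the gene families follow. U1 and U2 small nuclear ribonucleoproteins (snRNPs) recognise the 5′ splice site and the branch point, U2AF reads the 3′ splice site, SF3a and SF3b belong to U2, and the tri-snRNP and Prp19-related factors bring the complex to activity. SR proteins mostly promote exon inclusion and hnRNPs often oppose it, and many genes of both families adjust their own output through unproductive splicing. The mark and this machinery are linked, since the nuclear m6A reader YTHDC1 is known to recruit SRSF3 and to keep SRSF10 away, and HNRNPC binds sites that m6A makes accessible.

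Splicing genes carried more called peaks in Mettl3 cKO cells than in control cells, while the peak lists as a whole ran the other way. The ratio of cKO to control peaks was 1.71 for splicing genes and 0.799 over all genes. Exonic sequence under their peaks came to 18.6 kb in the cKO list and 10.8 kb in the control list, a ratio of 1.72 against 0.712 over all peaks. More peaks in the cKO list than in the control list were seen for 32 of the 53 genes (60.4%, 46.0 to 73.5), against 33.1% of all genes with a peak. The reverse held for 12 genes (22.6%), against 46.7% of all genes, and 9 had equal numbers. The surplus of peaks was uneven between families. It was 13 cKO against 4 control peaks for Srsf, 8 against 3 for Snrp and 8 against 1 for Snrnp. The counts were closer for Hnrnp (21 against 16), Sf3 (9 against 8), Prpf (11 against 9) and U2af (2 against 1).

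Counted by gene, 21 of 53 had peaks only among those of cKO cells (39.6%, 26.5 to 54.0), against 23.1% of all genes with a peak. A further 10 had one in the control list alone (18.9%, 9.44 to 32.0), against 33.7% of all genes, and 22 were in both lists (41.5%), near the 43.1% of all genes. Absence from a list means only that no peak was called there. Of the 76 protein-coding genes with these symbol starts in the RefSeq table of the same assembly, 24 had no peak in either list. They include Hnrnpa2b1, Hnrnpa3, Hnrnpf, Hnrnph1 and Hnrnph3 among the hnRNPs, Srsf2, Srsf7 and Srsf12 among the SR proteins, U2af1, and the Sm protein genes Snrpe, Snrpf and Snrpn. The others were Hnrnpa1l2-ps2, the U1 genes Snrpa and Snrpc, the U2 gene Sf3b6, the minor spliceosome genes Snrnp25 and Snrnp35, and Prpf4, Prpf18, Prpf38a, Prpf38b, Prpf39 and Prpf40b.

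**Figure D1:**
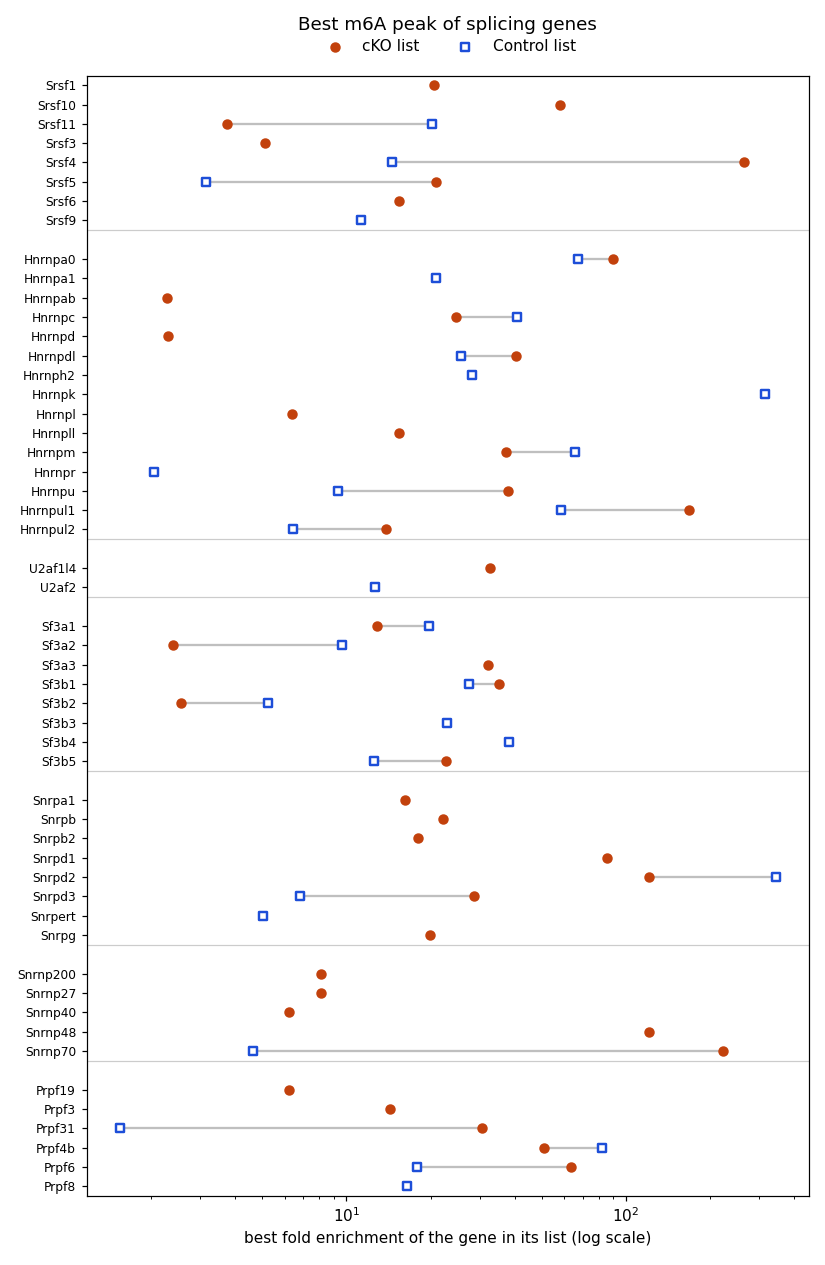
Best fold enrichment of 52 of the 53 splicing genes on a log scale, with filled circles for the cKO list, open squares for the control list and a line joining both where a gene is in both. In 21 genes only a circle is drawn and in 10 only a square, and the lines run in both directions.

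Peaks that reached an annotated transcript start are shown by their sequence, because the letters under them can be set beside the m6A consensus. Of the 53 genes, 43 had a RefSeq start sequence (GRCm38.p6). Peaks of 5 genes reached into the first 50 bases after that start in cKO cells (11.6%, 3.89 to 25.1; 8.92% of all genes with a start sequence), against 1 gene in control cells (2.33%, 0.0589 to 12.3; 1.73% of all). Such genes were more frequent in the cKO list over all genes too, and the shares of splicing genes were near the background in both lists. For Hnrnpm, Snrpd3 and Prpf31 the start of this sequence is the RefSeq 5′ end of the gene used for distances elsewhere in the text, while for Hnrnpu it lies 1076 and for Sf3b1 23 nucleotides inside that end. The lines give at most 30 covered bases nearest the end of that window, 5′ to 3′ on the gene's strand, with the letters GAC, the core of the usual m6A consensus, in capitals.
Hnrnpu, chr1:178337766-178337795, minus strand: cccctgcgagagGACgttgcgtgctcgctc
Hnrnpm, chr17:33685409-33685438, minus strand: gcgcgcaggcgcagctcGACagagcccgct
Snrpd3, chr10:75518062-75518091, plus strand: tctcgccttcgccttctaacgtttgtgcca
Prpf31, chr7:3630005-3630034, plus strand: gaagctctggggaagcagatttcttggaaa
Sf3b1, chr1:55027429-55027451, minus strand: gctcagagagcggcctctgtttc
The letters GAC stand in the stretches of Hnrnpu and Hnrnpm, and in Hnrnpu they belong to GGAC. In the full consensus, DRACH, D is any letter but C, R is A or G, and H is any letter but G. The GAC of Hnrnpu is followed by G and that of Hnrnpm is preceded by C, so neither is a full site. Searched on the transcribed strand alone, GAC occurs in the first 50 bases of 48.1% of all 32851 RefSeq start windows and GGAC in 18.9%. The stretches shown are shorter than these windows, so the shares are not a like-for-like background for them. No GAC in the other stretches says only that these letters are not in them. Anti-m6A antibodies are also known to bind m6Am, the methylated adenosine that can follow the cap and is written by another enzyme. The first base after these starts is A for Hnrnpu and Prpf31 and G for Hnrnpm, Snrpd3 and Sf3b1, and A for 34.4% of all start windows. The Hnrnpu and Sf3b1 peaks covered only 32 and 23 of the first 50 bases, and the first base was not among them. The part of m6Am in these peaks was not tested.

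The folds of these start peaks were 37.9 for Hnrnpu, 37.3 for Hnrnpm, 28.5 for Snrpd3, 30.6 for Prpf31 and 35.3 for Sf3b1 in the cKO list. The control list had a peak at the start of Hnrnpm at fold 17.7, which covered 15 of the 50 bases where the cKO peak covered all of them. Within 300 nucleotides of the RefSeq 5′ end lay 12 of the 72 cKO peaks (16.7%, 8.92 to 27.3), against 13.4% of all cKO peaks. In the control list 5 of 42 peaks did so (11.9%, 3.98 to 25.6), against 3.38% of all control peaks, so nearness to the start was more common in the cKO list over all peaks too. At the 3′ end, 6 cKO peaks (8.33%, 3.12 to 17.3; 15.5% of all) and 4 control peaks (9.52%, 2.66 to 22.6; 9.9% of all) lay equally near.

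Most of the surplus of splicing gene peaks in the cKO list lay outside the peaks that the authors class as coding. Coding sequence held 37 cKO and 32 control peaks of splicing genes, a ratio of 1.16 against 0.806 over all genes. In all other classes lay 35 cKO and 10 control peaks, a ratio of 3.5 against 0.791 over all genes. Of these, 18 cKO and 6 control peaks were of other exons, a class that may include coding sequence. The Snrpd2 cKO peak of that class, for example, held all 239 nucleotides of a control peak classed as coding. How much of the surplus is non-coding is thus not known. The authors class 5 cKO peaks as 5′ UTR (6.94%, 2.29 to 15.5, against 7.56% of all cKO peaks), in Snrpd1, Snrpd3, Hnrnpm, Hnrnpu and Srsf6. They class 0 of 42 control peaks so (up to 8.41%, against 2.32% of all control peaks). The class may miss some, since an Hnrnpm control peak classed as other exon shared 270 nucleotides with the Hnrnpm cKO peak classed as 5′ UTR. In 3′ UTRs there were 12 cKO peaks (16.7%, 8.92 to 27.3; 23.9% of all) and 4 control peaks (9.52%, 2.66 to 22.6; 31.7% of all). Coding sequence thus held 51.4% of the cKO peaks (39.3 to 63.3; 53.5% of all) and 76.2% of the control peaks (60.5 to 87.9; 53% of all).

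Other exons, a class for which the authors give no more specific part, held 18 cKO peaks (25%, 15.5 to 36.6; 14.9% of all) and 6 control peaks (14.3%, 5.43 to 28.5; 12.8% of all). The cKO peaks of this class lay in Srsf3, Srsf4, Srsf5, Hnrnpll, Sf3b5, Snrnp40, Snrnp48, Snrnp70, Snrpa1, Snrpb and Snrpd2. All 3 cKO peaks and the single control peak of Srsf5 were of this class, and likewise those of Snrnp70.

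**Figure D2:**
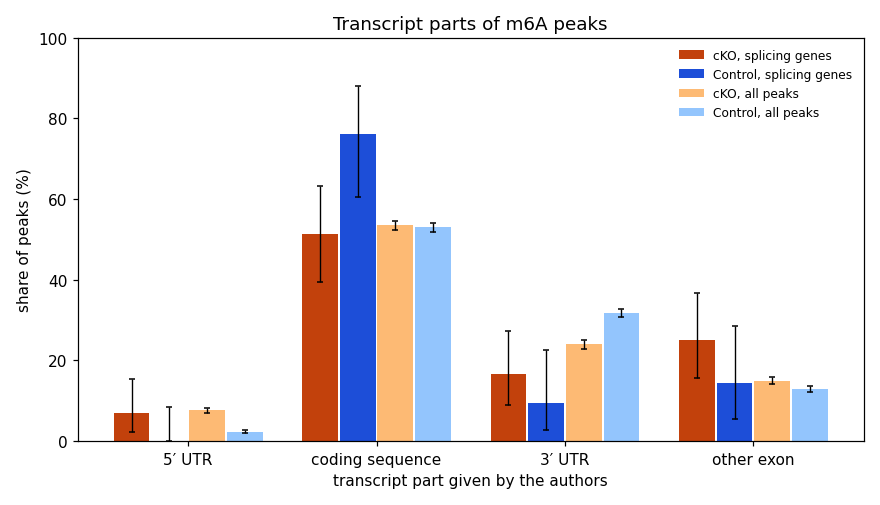
Share of peaks in each transcript part, in percent, for the cKO and control peaks of splicing genes (dark bars, 72 and 42 peaks) and for all peaks (pale bars), with exact 95% intervals. Control peaks of splicing genes are classed as coding sequence in 76.2% of cases, and none is classed as 5′ UTR.

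Peaks of splicing genes often crossed exon junctions in both genotypes. Blocks of more than 1 exon made up 31 of 37 cKO coding peaks (83.8%, 68.0 to 93.8; 69% of all cKO coding peaks) and 24 of 32 control coding peaks (75%, 56.6 to 88.5; 40.9% of all control coding peaks). Over all transcript parts the shares were 62.5% of the cKO peaks (50.3 to 73.6; 48.5% of all) and 66.7% of the control peaks (50.5 to 80.4; 28.8% of all). Median exonic width was 210 nucleotides in the cKO list (range 120 to 991) and 239 in the control list (119 to 601). The median fold was 14.1 in the cKO list, where all peaks had 13.2, and 17.1 in the control list, where all peaks had 19.3. These medians need not share a scale between the lists.

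Sites called in control cells were often called again in cKO cells. A counterpart was a peak of the other list with at least 1 bp of exonic overlap on the gene's strand. Of the 72 cKO peaks, 23 had a control counterpart (31.9%, 21.4 to 44.0), against 41.8% of all cKO peaks. Of the 42 control peaks, 24 had a cKO counterpart (57.1%, 41.0 to 72.3), against 33.7% of all control peaks. Among coding peaks of more than 1 block, 14 of 31 cKO peaks (45.2%, 27.3 to 64.0; 39.7% of all such cKO peaks) and 17 of 24 control peaks (70.8%, 48.9 to 87.4; 55.7% of all such control peaks) were met. For coding peaks of 1 block these were 1 of 6 cKO peaks (16.7%, 0.421 to 64.1; 62.5% of all) and 2 of 8 control peaks (25%, 3.19 to 65.1; 26.4% of all). Outside the coding class, 8 of 35 cKO peaks (22.9%, 10.4 to 40.1; 36.2% of all) and 5 of 10 control peaks (50%, 18.7 to 81.3; 28.4% of all) were met. When the overlap had to cover 50% of both peaks, 18.1% of the cKO and 31.0% of the control peaks of splicing genes had a counterpart, against 27.5% of all cKO and 22.0% of all control peaks.

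In 20 of the 22 genes found in both lists, peaks overlapped by at least 1 bp (90.9%, 70.8 to 98.9), against 75.4% of all genes in both lists. The exceptions were Sf3a1 and Sf3b1, whose peaks lay apart. Some overlaps were small, as in Snrpd3 with 1 shared nucleotide and Hnrnpu with 31 and 91. The count of genes at 50% overlap is not given here, and by that rule fewer pairs remain. The 24 overlapping pairs split evenly by fold, with 12 higher in the cKO list (50%, 29.1 to 70.9), against 40.2% of all overlapping pairs. Because the lists may differ in scale, each fold was also placed among all peaks of its own list, and 14 of the 24 pairs then stood higher in the cKO list (58.3%, 36.6 to 77.9), against 51.4% of all pairs. Snrnp70 stood 83.1 percentage points higher in the cKO list, Prpf31 78.1, Srsf5 66.4 and Srsf4 59.1. Hnrnpc stood lower there, with a difference of -55.2 points, as did Srsf11 with -45.7. The pairs in Hnrnpm (-76.7) and Snrpd3 (66.0) that also differed widely shared only 1 nucleotide each. In Prpf31, Srsf5, Srsf4 and Hnrnpc the shared part was 29.5%, 40.2%, 29.2% and 35.9% of the cKO peak, though 100% of the control peak. These 4 pairs thus miss the rule of 50% of both peaks, and their folds belong to peaks of unlike extent. The Snrnp70 and Srsf11 pairs met it.

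**Figure D3:**
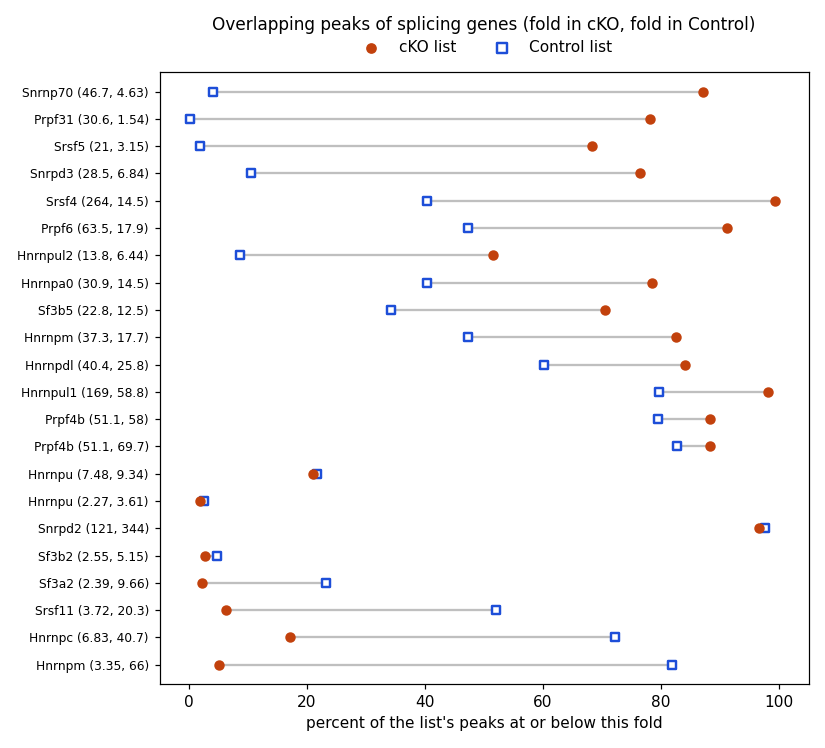
Overlapping pairs of splicing gene peaks (22 of the 24), placed by the percent of its own list at or below its fold, with filled circles for the cKO list and open squares for the control list, and both folds in brackets. Snrnp70 has the widest gap with the cKO peak higher, and Hnrnpm, whose peaks share 1 nucleotide, the widest with the control peak higher.

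SR protein genes had 13 cKO peaks and 4 control peaks in 8 genes. Srsf1, Srsf3, Srsf6 and Srsf10 were in the cKO list alone, Srsf9 in the control list alone, and Srsf4, Srsf5 and Srsf11 in both. Srsf4, which encodes an SR protein with a long arginine-serine tail, had the highest fold of any splicing gene in the cKO list. Its 4-block peak on chromosome 4, from 131892175 to 131900659, had a fold of 264, and the control peak inside it, from 131897668 to 131900067, a fold of 14.5. Of the 719 exonic nucleotides of this cKO peak, 485 also lay under a cKO peak of the antisense gene Gm12992. The second Srsf4 peak in cKO cells, of fold 8.09, shared 109 of its 121 nucleotides with that gene. Reads of Srsf4 and Gm12992 cannot be told apart if the library kept no strand, and the labels' protocols name a Smart-seq preparation without saying whether it did.

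Srsf10, which encodes a splicing repressor controlled by dephosphorylation, had a coding peak of fold 58.1 across 3 blocks and one of fold 13.2 in its 3′ UTR in cKO cells, and none in control cells. Srsf1, the founding SR protein gene, likewise had 3 peaks in the cKO list alone, of fold 20.6 in coding sequence and 7.45 and 8.46 in the 3′ UTR. Srsf5 had 3 cKO peaks along its length (fold 3.64, 9.56 and 21), and the last overlapped its single control peak of fold 3.15. Srsf11 went the other way at one site, with a fold of 3.72 in the cKO list and 20.3 in the control list over 210 shared nucleotides. Srsf3 had 1 cKO peak of fold 5.09 in another exon and Srsf6 one of fold 15.4 in its 5′ UTR. The lone Srsf9 peak had a fold of 11.3 in the control list.

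The hnRNP genes had 21 cKO peaks and 16 control peaks in 15 genes. Of these, 7 were in both lists, 4 in the cKO list alone and 4 in the control list alone. Hnrnpul1, which encodes an hnRNP U-like protein, had a peak with identical ends in both lists, on chromosome 7 from 25748390 to 25754637 in 3 blocks of 510 nucleotides in all. Its fold was 169 in the cKO list and 58.8 in the control list. Hnrnpdl had a long coding peak of 5 blocks in the cKO list (fold 40.4) and 4 in the control list (fold 25.8), with 450 nucleotides in common.

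The hnRNP genes of the cKO list alone had folds of up to 15.4. These were Hnrnpll, known as a regulator of alternative splicing in lymphocytes, at 15.4 and 6.99, Hnrnpl at 6.39, Hnrnpd at 2.3 and 1.83, and Hnrnpab at 2.27 and 1.22. Hnrnpk, which encodes a poly(C)-binding hnRNP, had the highest fold among splicing genes of the control list alone, at 315 in a coding peak of 4 blocks on chromosome 13 from 58399208 to 58401192. No Hnrnpk peak was called in cKO cells. Hnrnph2 (28.2 and 4.13), Hnrnpa1 (20.9, 3′ UTR) and Hnrnpr (2.05) were also in the control list alone.

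Hnrnpm and Hnrnpu each had 3 cKO and 2 control peaks. In Hnrnpm, the peak over the first exons was shared, while a coding peak towards the 3′ end, of fold 66 in the control list, met the cKO list by a single nucleotide at a peak of fold 3.35. In Hnrnpu, which encodes the nuclear scaffold attachment factor, 2 pairs of peaks overlapped, by 91 and 31 nucleotides. Their cKO peaks began 8046 and 9546 nucleotides along the genome from the RefSeq 5′ end. The folds were 7.48 and 2.27 in the cKO list and 9.34 and 3.61 in the control list. The 5′ UTR peak of Hnrnpu was in the cKO list alone. Hnrnpc had a coding site of fold 6.83 in the cKO list and 40.7 in the control list, and a separate peak of fold 24.6 in its 3′ UTR with no control counterpart. Hnrnpa0, an intronless hnRNP gene, shared its coding site at a fold of 30.9 in the cKO list and 14.5 in the control list, whereas its best 3′ UTR peaks, of fold 89.7 in the cKO list and 67.6 in the control list, lay apart. Hnrnpul2 shared 1 coding site, at fold 13.8 in cKO and 6.44 in control cells.

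Genes of the snRNP core and of snRNP-specific proteins were found mostly in the cKO list. Names starting with Snrp had 8 cKO and 3 control peaks, and names starting with Snrnp had 8 cKO peaks and 1 control peak. Of these 13 genes, 9 were in the cKO list alone (69.2%, 38.6 to 90.9; 23.1% of all genes), namely Snrpa1, Snrpb, Snrpb2, Snrpd1, Snrpg, Snrnp200, Snrnp27, Snrnp40 and Snrnp48. Many of these calls were weak. The single peaks of Snrpa1, Snrpb, Snrpb2, Snrnp200, Snrnp27 and Snrnp40 each had a p-value and fold that 19 to 98 cKO peaks had in common. Of the 9 genes, only Snrpd1 and Snrnp48 had a peak with a p of at most 1e-10. The Sm ring genes among them, which encode the heptameric collar common to spliceosomal snRNPs, were Snrpd1 (fold 85.3, 5′ UTR), Snrpb (22.1) and Snrpg (19.9). Snrpd2, also an Sm gene, was in both lists at a fold of 121 in the cKO list and 344 in the control list. All 239 nucleotides of its control peak lay within the cKO peak of 477. Snrpd3 carried cKO peaks of fold 28.5 and 6.99, and a control peak of fold 6.84 that began on the last nucleotide of the first of these.

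Snrnp70, which encodes the U1-specific 70K protein, had 3 cKO peaks and 1 control peak. The peak near its 5′ end, on chromosome 7 from 45394671 to 45395592, had a fold of 222 in the cKO list and no control counterpart. Further along, a cKO peak of fold 46.7 overlapped the control peak of fold 4.63 over 331 nucleotides, and the third, of fold 2.35, lay near the 3′ end. Snrnp48, which encodes a protein of the minor spliceosome, had cKO peaks of fold 121 and 15.1 and none in the control list. Snrpa1 and Snrpb2, which encode the U2-specific A′ and B″ proteins, had single cKO peaks of fold 16.2 and 18. Those of Snrnp200 (8.09), the helicase that unwinds U4 from U6, and of Snrnp27 (8.09) and Snrnp40 (6.25) were below the median fold of all cKO peaks. Snrpert, annotated as a processed pseudogene, was in the control list alone at fold 5.03.

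**Figure D4:**
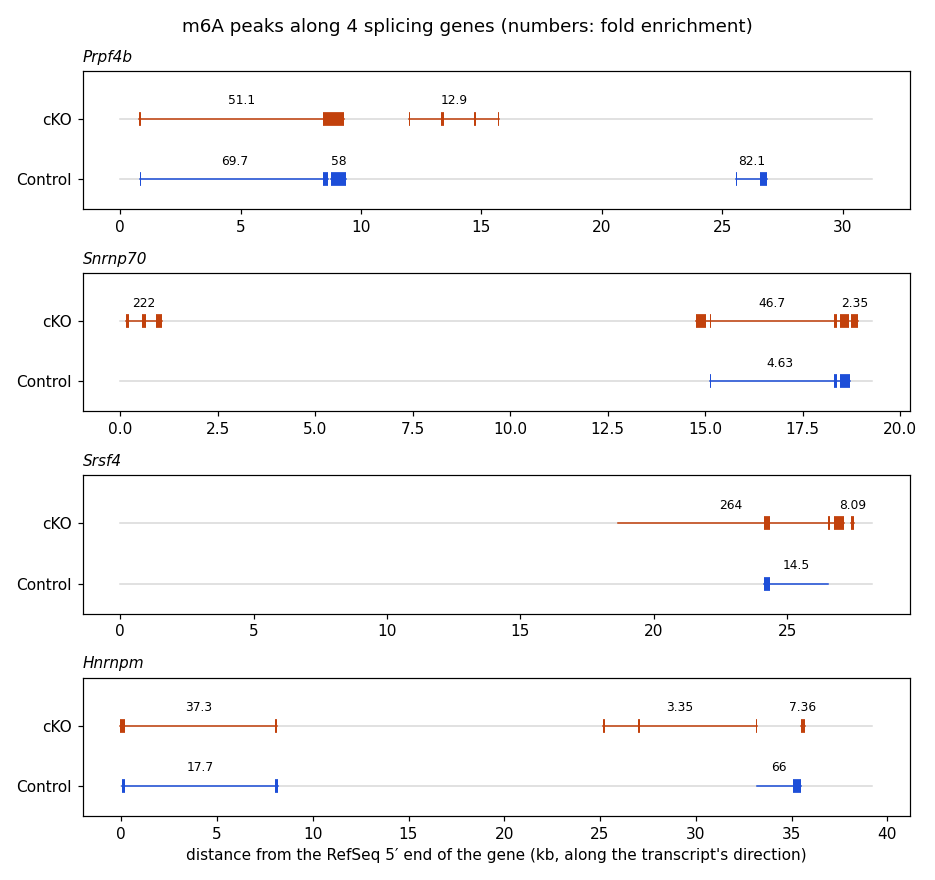
Peaks of Prpf4b, Snrnp70, Srsf4 and Hnrnpm by distance in kb from the RefSeq 5′ end, cKO above control, with exon blocks as thick bars joined by thin lines and the fold of each peak printed above it. Prpf4b has 2 cKO and 3 control peaks, and the Snrnp70 peak of fold 222 near the 5′ end has no control counterpart.

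Splice site recognition by U2AF and U2 showed a mixed picture. U2af1l4, which encodes a paralogue of the small subunit, had 2 cKO peaks of fold 32.7 under 2 Ensembl identifiers at nearly the same place, so they may be a single site. U2af2, the large subunit that binds the polypyrimidine tract, had a control peak of fold 12.7 and no cKO peak. Among SF3 genes, with 9 cKO and 8 control peaks, 5 of 8 were in both lists. Sf3a3 (32) was in the cKO list alone, and Sf3b4 (38.2) and Sf3b3 (22.9) in the control list alone.

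Sf3b1, which encodes the branch point clamp of U2, had peaks at different places in the 2 genotypes. Its cKO peaks of fold 35.3 and 10.7 began 50 and 21180 nucleotides along the genome from the RefSeq 5′ end of the gene. Its control peak of fold 27.4 began 39516 nucleotides from that end. Sf3a1 had separate peaks of fold 12.9 (coding) in the cKO list and 19.7 (3′ UTR) in the control list. Sf3b5 shared a 3′ UTR site at a fold of 22.8 in cKO and 12.5 in control cells. Coding sites were shared in Sf3b2, at 2.55 in cKO and 5.15 in control cells, and in Sf3a2, at 2.39 in cKO and 9.66 in control cells.

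Prpf genes had 11 cKO and 9 control peaks in 7 genes, of which 4 were in both lists. Prpf4b, which encodes a spliceosomal kinase, had 1 cKO peak of fold 51.1 across 991 exonic nucleotides that spanned 2 control peaks of fold 69.7 and 58. Its strongest control peak, of fold 82.1, lay downstream with no counterpart, and a cKO peak of fold 12.9 lay between. Of the tri-snRNP genes, Prpf6 shared a coding site at fold 63.5 in cKO and 17.9 in control cells, and Prpf31 one at 30.6 in cKO and 1.54 in control cells. Prpf3 (14.3) and the ubiquitin ligase gene Prpf19 (6.25) were in the cKO list alone. Prpf8, which encodes the protein at the heart of the catalytic core, had control peaks of fold 16.5 and 14.9 and no cKO peak.

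Splicing genes outside these families, a list of 50 that included SR-related proteins, SR protein kinases and other RNA-binding regulators, had a ratio of cKO to control peaks between that of the families and that of all genes. Of 40 with any peak, 25 were in both lists (62.5%, 45.8 to 77.3; 43.1% of all genes), 10 in the cKO list alone (25%, 12.7 to 41.2; 23.1% of all) and 5 in the control list alone (12.5%, 4.19 to 26.8; 33.7% of all). Their peaks numbered 76 in the cKO list and 68 in the control list, a ratio of 1.12 against 0.799 over all genes. The best fold of Mbnl2 was 48.9 in the cKO list and 403 in the control list, that of Rbm39 97.8 in cKO and 204 in control, that of Luc7l2 171 in cKO and 80.3 in control, and that of Mbnl1 30.5 in cKO and 155 in control. Sart1 (38.6) and Smndc1 (35.7) led those in the cKO list alone, and Ptbp3 (113) and Tardbp (102) those in the control list alone. The difference between the lists of genes was not tested.

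Some of the peaks rest on weak evidence. A false discovery rate above 0.05 was given for 4 cKO peaks (5.56%, against 5.75% of all cKO peaks), in Hnrnpa0, Hnrnpm, Snrnp40 and Snrpd3, and for 1 control peak (2.38%, against 3.33%), in Hnrnpul2. In the cKO list, 22 splicing gene peaks (30.6%, against 32.6% of all) had a p-value and a fold that at least 10 peaks of the list, themselves included, had in common. In the control list 12 did so (28.6%, against 49.1% of all). The Snrnp200 and Snrnp27 peaks, for example, were among 98 cKO peaks with a p of 0.01 and a fold of 8.09, and the Srsf9 peak was among 103 control peaks with a p of 0.0012 and a fold of 11.3.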

How the data were processed

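m6A-precipitated and input RNA of 8 libraries (2 per genotype and kind) was read as 150-bp paired ends after fragmentation to 100 to 200 nucleotides, per the labels' protocols. HISAT2, HOMER and mm10 are named without roles in the submitters' processing notes, and which caller was run, and whether replicates were pooled, is not given in the sources used here. Per the file headers, each peak of the 2 deposited lists carries exon blocks, a p-value, log10 columns treated here as a score, a class and a fold enrichment, a ratio made by the authors. The p-values of the deposited peaks were all below 0.05. Members and gene lists were chosen with earlier results of these data known.

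Outer ends and exon blocks were read from the lists, coordinates were made 1-based, and genes were joined by symbol. Overlap was computed with Python 3.11.15 and pandas 2.3.3, intervals with scipy 1.17.1, and figures with matplotlib 3.10.9. The overlap code was run on deposited control peaks shifted slightly or given another chromosome name, a check whose outcome was fixed by construction. On a single chromosome it also gave the same pairs as a direct comparison of all peaks. Gene ends and start sequences came from RefSeq tables of GRCm38.p6, the mm10 assembly, in which all 53 members were found. Cells holding a spreadsheet error in the false discovery rate column were read as the smallest values. Values are given for the members that the rule for named genes takes, except 1, which is counted with the rest and is not reported by name here. A search of peaks for the m6A consensus was planned for the case of a genome and was not run. Depth per library is unknown. Alternatives changed the overlap, the peak threshold, the joining of genes and the peaks kept.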

Additional observations from a re-analysis of the deposited data

How the results depend on the processing

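Of 104 values under alternatives, 90 stayed within the interval of the reported value, or for counts within 1.5 times, and 14 did not. The alternative that counted rows of the same outer ends and strand once removed no peak. Its values, counted among the 90, could not move. Requiring 50% overlap lowered the share with a counterpart to 18.1% of cKO and 31.0% of control peaks. Over all peaks, that setting gave 27.5% of cKO and 22.0% of control peaks. Keeping peaks of fold 10 or more left 43 cKO peaks and 13 genes in both lists, with median folds of 28.5 in the cKO list and 24.4 in the control list. Keeping peaks of p at most 1e-10 left 29 cKO and 17 control peaks, 11 genes in both lists and 3 in the control list alone. Under it the median folds were 37.3 in the cKO list and 58 in the control list, coding peaks of more than 1 block made up 100% of the cKO coding peaks, and coding sequence held 88.2% of the control peaks. Fewer peaks remain under both thresholds by construction. Control peaks of fold 10 or more numbered 28. The ratio of cKO to control peaks of splicing genes was 1.54 at fold 10 and 1.71 at p 1e-10, against 0.664 and 0.749 over all peaks. With a false discovery rate of at most 0.05, an alternative chosen after seeing the data, it was 1.66, against 0.779 over all peaks. Without the peaks shared with Gm12992 and without the pseudogene, also chosen afterwards, it was 1.71, against 0.799 over all peaks. Joining by Ensembl identifier gave 22 genes in the cKO list alone, since U2af1l4 has 2. No paired analysis was possible because each genotype has 1 peak list with no value per replicate. Leaving out a replicate could not be done for the same reason, and unknown depth limits what a missing peak shows.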
